A study of Mus musculus with 10 samples.

Results

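The nuclear genes of respiratory complex I and of its assembly factors were followed in mouse platelet RNA as all rows whose symbol begins with Nduf, 54 of the 53819 gene symbols counted in each library. Poly(A) RNA of platelets was sequenced in 5 libraries from young mice, labelled P7 and taken to mean postnatal day 7 (letters A, B, C, E and I), and in 5 libraries from adult mice (letters A, B, C, G and H). No treatment, transgene or mutation is named for either age, and the labels used here give no strain, sex, adult age or number of animals per library, so each p-value reflects spread among libraries that may be technical repeats. cDNA was amplified from low-input RNA by SMARTer chemistry before Nextera XT library preparation. Of the 54 rows, 37 are nuclear-encoded complex I subunits, 16 of the matrix arm and 21 of the membrane arm, and 8 are assembly factors (Ndufaf1 to Ndufaf8). A further 2 carry the Nduf name but are not counted as complex I subunits (Ndufa4, now understood as a subunit of complex IV, and its relative Ndufa4l2). The last 7 are copies or pseudogenes (Ndufa12-ps, Ndufab1-ps, Ndufs5-ps, Ndufs6b, Ndufb4c, Ndufb11b and Ndufa11b).

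Complex I is the largest enzyme of the mitochondrial respiratory chain and its main entry point for electrons from NADH. Its matrix arm oxidises NADH on flavin and passes electrons along iron-sulfur clusters to ubiquinone, and its membrane arm, built around the mitochondrially encoded ND subunits, pumps protons. Accessory subunits surround this catalytic core, and assembly factors join the modules together and leave before the enzyme is finished. Platelets have no nucleus but keep working mitochondria, and their RNA comes from the megakaryocytes that shed them.

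In P7 platelets 10 of the 35 tested subunits were higher and 1 was lower than in adult platelets, while none of the 3 tested assembly factors was called in either direction. The subunits that rose included the accessory subunits Ndufb7 (2.31-fold), Ndufv3 (2.37-fold), Ndufb9 (1.80-fold) and Ndufa6 (2.08-fold) and the core subunit Ndufs8 (1.92-fold). The 1 that fell was the abundant Ndufs4. Ndufa4 fell as well. In bulk RNA of this kind, fewer cells of a type and less RNA per cell cannot be told apart. A gene was called at a Benjamini-Hochberg adjusted p under 0.05 in edgeR's quasi-likelihood test, fitted over 8198 genes that passed a filter on low counts, and fold changes are P7 over adult. Among all tested genes 13.8% were called higher and 13.9% lower (27.7% in either direction), against 28.6% and 2.86% of the tested subunits. At a share of 27.7%, 0 calls among 3 genes does not set the assembly factors apart. Of the 10 subunits called higher, Ndufc2, Ndufa5 and Ndufc1 passed the filter through their P7 libraries.

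Promoters are shown for 3 of the subunits that rose in every fit with 1 library left out and for both genes that fell, from RefSeq on build GRCm38.p6, 250 bases before to 50 bases after the annotated start and in the gene's own direction. Capitals mark matches, on either strand, to an ETS core (CCGGAAG, the motif of the GABP factors), the NRF1 motif (GCGCA, any base, then GCGC) or a YY1 motif (AAGATGGC). The first 3 belong to subunits that rose, Ndufb7 at chr8:83566508-83566807 on the plus strand, Ndufv3 at chr17:31519865-31520164 on the plus strand and Ndufa6 at chr15:82354242-82354541 on the minus strand. The last 2 belong to genes that fell, Ndufs4 at chr13:114388045-114388344 and Ndufa4 at chr6:11907401-11907700, both on the minus strand.
Ndufb7: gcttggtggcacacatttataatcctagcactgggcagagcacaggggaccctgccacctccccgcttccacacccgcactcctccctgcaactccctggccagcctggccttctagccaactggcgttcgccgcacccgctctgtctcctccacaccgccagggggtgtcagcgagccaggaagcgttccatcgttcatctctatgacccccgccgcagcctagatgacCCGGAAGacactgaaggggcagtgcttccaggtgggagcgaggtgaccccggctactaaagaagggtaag
Ndufv3: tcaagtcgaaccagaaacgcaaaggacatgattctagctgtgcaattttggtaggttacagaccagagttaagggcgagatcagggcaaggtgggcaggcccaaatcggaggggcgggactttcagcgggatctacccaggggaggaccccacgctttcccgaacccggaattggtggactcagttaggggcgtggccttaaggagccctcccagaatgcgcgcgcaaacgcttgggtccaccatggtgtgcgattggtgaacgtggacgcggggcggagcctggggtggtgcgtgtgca
Ndufa6: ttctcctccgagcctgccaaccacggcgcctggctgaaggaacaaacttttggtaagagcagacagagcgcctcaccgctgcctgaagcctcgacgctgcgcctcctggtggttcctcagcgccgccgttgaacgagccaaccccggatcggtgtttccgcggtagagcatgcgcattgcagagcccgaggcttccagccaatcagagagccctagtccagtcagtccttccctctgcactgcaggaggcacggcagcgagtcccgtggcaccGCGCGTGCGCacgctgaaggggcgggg
Ndufs4: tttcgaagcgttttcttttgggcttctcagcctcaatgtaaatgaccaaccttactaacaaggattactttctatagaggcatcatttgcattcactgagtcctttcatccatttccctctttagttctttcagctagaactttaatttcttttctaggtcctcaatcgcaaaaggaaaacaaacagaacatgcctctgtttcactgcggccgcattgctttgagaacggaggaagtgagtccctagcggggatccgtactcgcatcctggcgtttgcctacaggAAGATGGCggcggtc
Ndufa4: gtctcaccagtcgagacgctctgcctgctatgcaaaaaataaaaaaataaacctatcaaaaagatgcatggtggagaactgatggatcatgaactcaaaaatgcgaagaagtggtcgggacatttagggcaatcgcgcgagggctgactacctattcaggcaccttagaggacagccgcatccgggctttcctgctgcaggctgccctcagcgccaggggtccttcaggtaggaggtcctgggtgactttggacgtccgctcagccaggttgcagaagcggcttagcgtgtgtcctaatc
The Ndufb7 window held 1 ETS core, the Ndufa6 window 1 NRF1 motif and the Ndufs4 window 1 YY1 motif, while the Ndufv3 and Ndufa4 windows held no match to these letters or to the CRE motif (TGACGTCA).

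Of the 54 rows 41 had a promoter in the RefSeq table. NRF1 motifs stood in 9 of them, ETS cores in 6, YY1 motifs in 8 and CRE motifs in 3, and 23 held at least 1 of these motifs. Over 27025 promoters of the same length, 4.78% held an NRF1 motif, 9.12% an ETS core, 2.88% a YY1 motif and 1.88% a CRE motif. The 8 promoters of genes called higher held an NRF1 motif in 2 cases (Ndufa5 and Ndufa6), an ETS core in 2 (Ndufb7 and Ndufs8) and a YY1 motif in 2 (Ndufa9 and Ndufc1), while Ndufc2 and Ndufv3 held none. Of the 25 promoters of tested genes with no call, 5 held an NRF1 motif, 2 an ETS core, 5 a YY1 motif and 3 a CRE motif. The 2 promoters of genes called lower had a YY1 motif in 1 case. A match describes letters in this window, not binding.

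**Figure D1:**
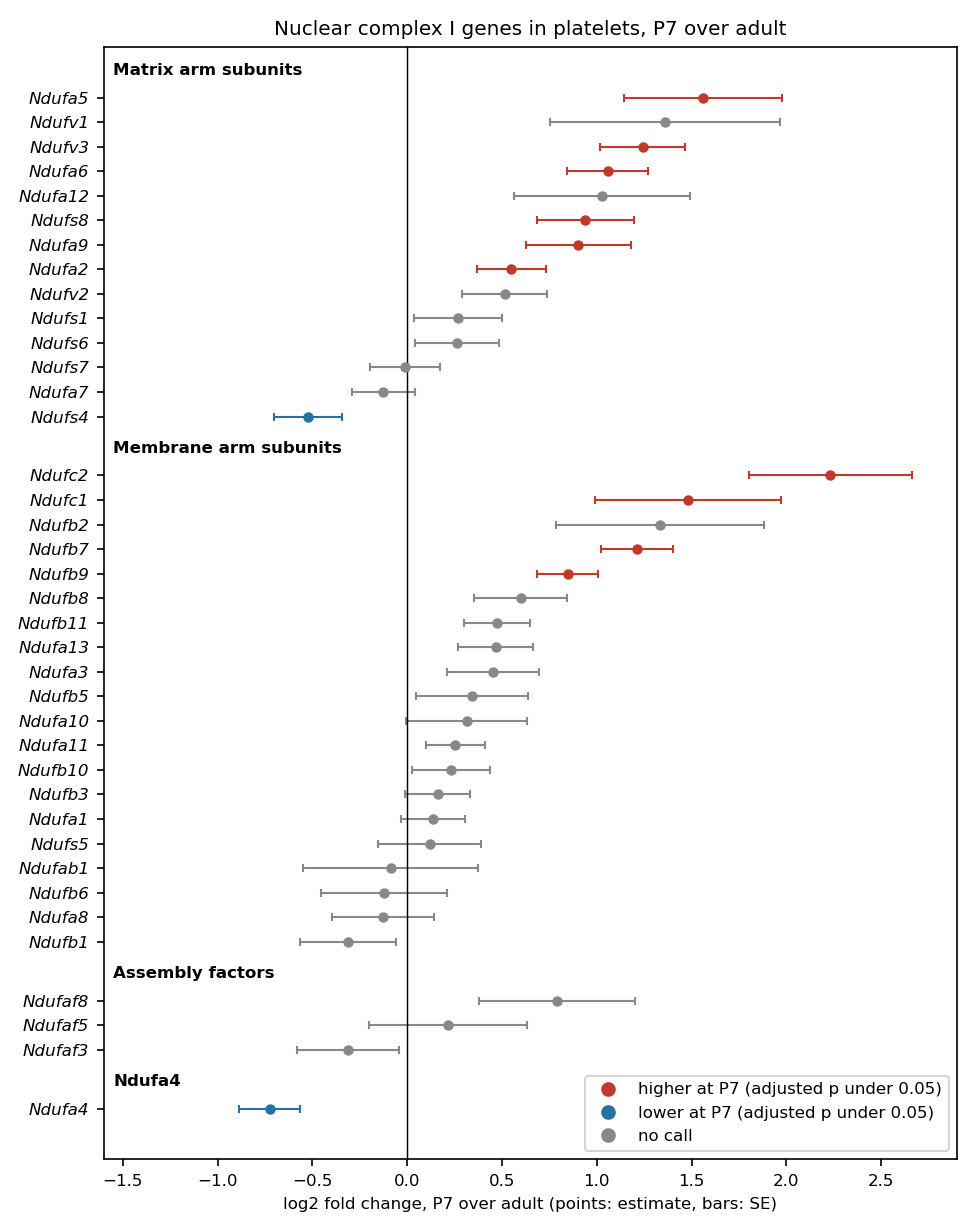
Log2 fold change, P7 over adult, of 38 of the 39 tested Nduf genes, by role. Points are edgeR estimates and bars their SE; red marks genes higher at P7, blue genes lower at P7 and grey genes with no call. Most subunits lie right of 0, and Ndufs4 and Ndufa4 are the 2 blue points.

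In the matrix arm 15 of 16 subunits passed the filter, with a median log2 fold change of 0.55, against 0.05 over all tested genes. Of these, 6 were higher at P7 and 1 was lower (40% and 6.67%), beside 13.8% and 13.9% of all tested genes. Ndufv3, an accessory subunit of the NADH-oxidising module, had 32.4, 59.2, 50.1, 38.3 and 48.2 CPM (counts scaled to library size with TMM factors) in P7 libraries A, B, C, E and I, against 18.0, 27.1, 20.4, 12.2 and 18.6 CPM in adult libraries A, B, C, G and H. The lowest P7 library was above the highest adult library, adult B. The log2 fold change was 1.24 ± 0.22 (SE; edgeR adjusted p = 0.000959). Ndufa6, a LYR-motif protein that anchors an acyl carrier protein on the ubiquinone-reducing module, had 7.81, 10.1, 13.3, 10.7 and 10.9 CPM at P7, against 4.01, 6.23, 5.90, 4.41 and 4.82 CPM in adults. The groups did not overlap, and the log2 fold change was 1.06 ± 0.21 (SE; edgeR adjusted p = 0.00228). Both calls held in each fit with 1 library left out.

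Ndufs8, a core subunit that carries iron-sulfur clusters next to the ubiquinone site, had 6.92, 7.65, 11.3, 7.44 and 5.16 CPM at P7, against 4.87, 4.90, 3.56, 2.699 and 4.02 CPM in adults. P7 C stood highest and P7 I just above adult B, so the groups were separate but close. Its log2 fold change was 0.94 ± 0.26 (SE; edgeR adjusted p = 0.0134). Ndufa5, an accessory subunit of the ubiquinone module, had 1.01, 1.29, 1.09, 1.40 and 1.96 CPM at P7, against 0.286, 0.688, 0.390, 0.600 and 0.287 CPM in adults. The groups did not overlap (log2 fold change 1.56 ± 0.42 SE, edgeR adjusted p = 0.0122), and the gene passed the filter through its P7 libraries, with 2 adult libraries at the cut-off of 0.442 CPM. The Ndufa5 call was lost in the 6 libraries lettered A to C (1.26, adjusted p = 0.137). Ndufa9, a nucleotide-binding subunit at the joint of both arms, had 2.696, 2.84, 3.06, 2.88 and 2.74 CPM at P7, against 1.19, 1.29, 1.22, 2.27 and 1.61 CPM in adults. The P7 libraries lay close together, above adult G as the highest adult library. The log2 fold change was 0.90 ± 0.28 (SE; edgeR adjusted p = 0.0241), a call lost without P7 C or adult A, B or C (adjusted p up to 0.0600) and with no filter on low counts (0.0992). The Ndufs8 call was lost when a trend with transcript GC content was removed (log2 fold change 0.58, adjusted p = 0.0999).

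Ndufa2, a small accessory subunit of the NADH module with a thioredoxin-like fold, had 177, 241, 198, 159 and 245 CPM at P7, against 137, 173, 128, 93.0 and 165 CPM in adults. The groups overlapped, since P7 E lay below adults B and H, and adult G was lowest. The log2 fold change was 0.55 ± 0.18 (SE; edgeR adjusted p = 0.0372), a call lost without P7 A, B, C or I or adult A, C or G (adjusted p up to 0.0951) and with the GC trend removed (0.129). In GENCODE M21, exons of Tmco6 on the other strand overlap 11.5% of those of Ndufa2, and an antisense gene overlaps 3.19% of those of Ndufa9; how strand was handled in counting is not known here, so both are uncertain.

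Ndufs4 went the other way. It encodes an accessory subunit that clasps the NADH module onto the rest of the arm, and its loss in mice gives a Leigh-like disease. The gene had 161, 168, 157, 127 and 249.9 CPM at P7, against 233, 240.0, 201, 271 and 295 CPM in adults. The P7 libraries other than P7 I lay below each adult library, and P7 I lay within the adult range. The log2 fold change was -0.52 ± 0.18 (SE; edgeR adjusted p = 0.0399). This call was lost without P7 A, B, C or E or adult A, G or H (adjusted p up to 0.0884), with upper quartile factors (0.0569) and after removal of the GC trend, where it was -0.31 (adjusted p = 0.195).

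The other 8 tested matrix arm subunits had no call. Of the core subunits 6 of 7 were tested and Ndufs8 alone was called, although 3 had an unadjusted p under 0.05. This call is 16.7% higher and 0% lower, beside 13.8% and 13.9% of all tested genes. Ndufv1, which binds flavin and NADH, averaged 2.17 ± 1.57 CPM in P7 libraries and 0.848 ± 0.571 CPM in adult libraries (SD, 5 per age), with P7 libraries between 0.620 and 4.38 CPM and adult libraries between 0.129 and 1.51 CPM. The groups overlapped, and the log2 fold change was 1.36 ± 0.61 (SE; edgeR adjusted p = 0.110). Ndufv2, its iron-sulfur partner, averaged 9.82 ± 1.20 CPM in P7 libraries and 6.86 ± 1.96 CPM in adult libraries (SD, 5 per age; log2 fold change 0.52, edgeR adjusted p = 0.103). For Ndufs1, an iron-sulfur core subunit, and Ndufs6, a zinc-binding accessory subunit, the log2 fold changes were 0.27 and 0.26. Ndufs7, which holds the terminal iron-sulfur cluster, averaged 12.4 ± 2.08 CPM in P7 libraries and 12.5 ± 1.49 CPM in adult libraries (SD, 5 per age), a log2 fold change of -0.01 ± 0.18 (SE). Ndufa12 and Ndufa7, both accessory subunits, had log2 fold changes of 1.03 (edgeR adjusted p = 0.113) and -0.13 (0.614).

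In the membrane arm 20 of 21 subunits passed the filter, with a median log2 fold change of 0.33. Of these, 4 were higher at P7 and 0 were lower (20% and 0%), beside 13.8% and 13.9% of all tested genes. Ndufb7, a small cysteine-rich protein on the intermembrane side of the arm, had 67.3, 92.6, 75.7, 64.8 and 105 CPM in P7 libraries A, B, C, E and I, against 30.9, 45.3, 39.6, 27.8 and 31.3 CPM in adult libraries A, B, C, G and H. The lowest P7 library, P7 E, lay well above adult B, the highest adult library. The log2 fold change was 1.21 ± 0.19 (SE; edgeR adjusted p = 0.000380), the smallest p among the Nduf genes. Ndufb9, a LYR-motif protein near the far end of the arm, had 37.2, 47.9, 42.5, 33.9 and 42.9 CPM at P7, against 22.0, 23.8, 25.7, 18.6 and 23.5 CPM in adults. The groups did not overlap and each was tight, with a log2 fold change of 0.85 ± 0.16 (SE; edgeR adjusted p = 0.00150). Its exons share 19.5% of their length with a gene model on the same strand, Gm49356, in the GENCODE M21 annotation, so its counts are uncertain.

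Ndufc1 and Ndufc2 sit together beside the ND2 part of the membrane arm, and both were scarce transcripts. Ndufc2 had 0.966, 1.86, 1.45, 1.68 and 1.32 CPM at P7, against 0.477, 0.172, 0.195, 0.343 and 0.344 CPM in adults. This was the largest fold change of a tested subunit, 2.23 ± 0.43 on the log2 scale (SE; edgeR adjusted p = 0.00157), and rests on 24 to 42 counts in each P7 library and 4 to 10 in adult libraries. Ndufc1 had 1.41, 3.25, 3.82, 1.64 and 1.05 CPM at P7, against 0.382, 1.59, 1.02, 0.343 and 0.631 CPM in adults. The groups overlapped, with P7 B and P7 C far above the other P7 libraries and adult B above P7 A and P7 I. The log2 fold change was 1.48 ± 0.49 (SE; edgeR adjusted p = 0.0357), a call lost without P7 B, C or E or adult A, G or H (adjusted p up to 0.115). Both genes passed the filter through their P7 libraries, with 1 adult library at the cut-off for Ndufc2 and 3 for Ndufc1.

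Of the 16 membrane arm subunits with no call, Ndufb2 came without overlap, at 0.644 to 1.65 CPM at P7 against 0.0428 to 0.574 CPM in adults (log2 fold change 1.33 ± 0.55 SE, edgeR adjusted p = 0.0845). Its lowest adult library, adult G, held 1 count. Ndufb2 passed the filter through its P7 libraries, with 3 adult libraries at the cut-off. Ndufb11, a single-pass membrane subunit encoded on the X chromosome, averaged 30.5 ± 5.56 CPM in P7 libraries and 22.0 ± 2.74 CPM in adult libraries (SD, 5 per age; log2 fold change 0.47, edgeR adjusted p = 0.0573). It passed the threshold with library size only, with upper quartile factors, with DESeq2, with genes of at least 10 CPM and without P7 E. Ndufb8 averaged 22.1 ± 5.36 CPM in P7 libraries and 14.6 ± 4.43 CPM in adult libraries (SD, 5 per age; log2 fold change 0.60, edgeR adjusted p = 0.0823), and Ndufa13, also known as GRIM-19, averaged 39.9 ± 6.16 CPM in P7 libraries and 28.9 ± 7.59 CPM in adult libraries (SD, 5 per age; 0.47, adjusted p = 0.0942). Ndufa3 had 130.1 to 266 CPM at P7 and 74.1 to 180 CPM in adults, a log2 fold change of 0.45 (edgeR adjusted p = 0.182).

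Ndufa1, the highest subunit per length of transcript and a small anchor of the membrane arm encoded on the X chromosome, had 267, 331, 284, 247 and 419 CPM at P7, against 306, 336, 270.1, 212 and 285 CPM in adults. Without P7 I, its highest library, the log2 fold change of 0.14 ± 0.17 (SE; edgeR adjusted p = 0.591) turned to -0.01. The remaining membrane arm subunits were Ndufab1, the mitochondrial acyl carrier protein, Ndufa8, Ndufb10 and Ndufs5, all cysteine-rich proteins of the intermembrane side, and Ndufa10, Ndufa11, Ndufb1, Ndufb3, Ndufb5 and Ndufb6. They had log2 fold changes between -0.31 (Ndufb1) and 0.34 (Ndufb5), each with overlapping groups. Ndufb1 spread most widely in adults, at 13.6 to 37.1 CPM, against 15.7 to 23.4 CPM at P7.

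Ndufa4 fell in P7 platelets. It was long listed with complex I and is now placed in cytochrome c oxidase (complex IV). The gene had 192, 271, 224, 176 and 221 CPM at P7, against 349.8, 363, 409, 257 and 414 CPM in adults. Adult G alone lay within the P7 range, below P7 B, and the other 4 adult libraries lay above each P7 library. The log2 fold change was -0.73 ± 0.16 (SE; edgeR adjusted p = 0.00426), and the call held in each fit with 1 library left out but not with a covariate of erythroid marker levels (-1.02, adjusted p = 0.134). Ndufa4l2, its hypoxia-induced relative, held 0 to 2 counts in each P7 library and 0 or 1 in adult libraries and was not tested.

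**Figure D2:**
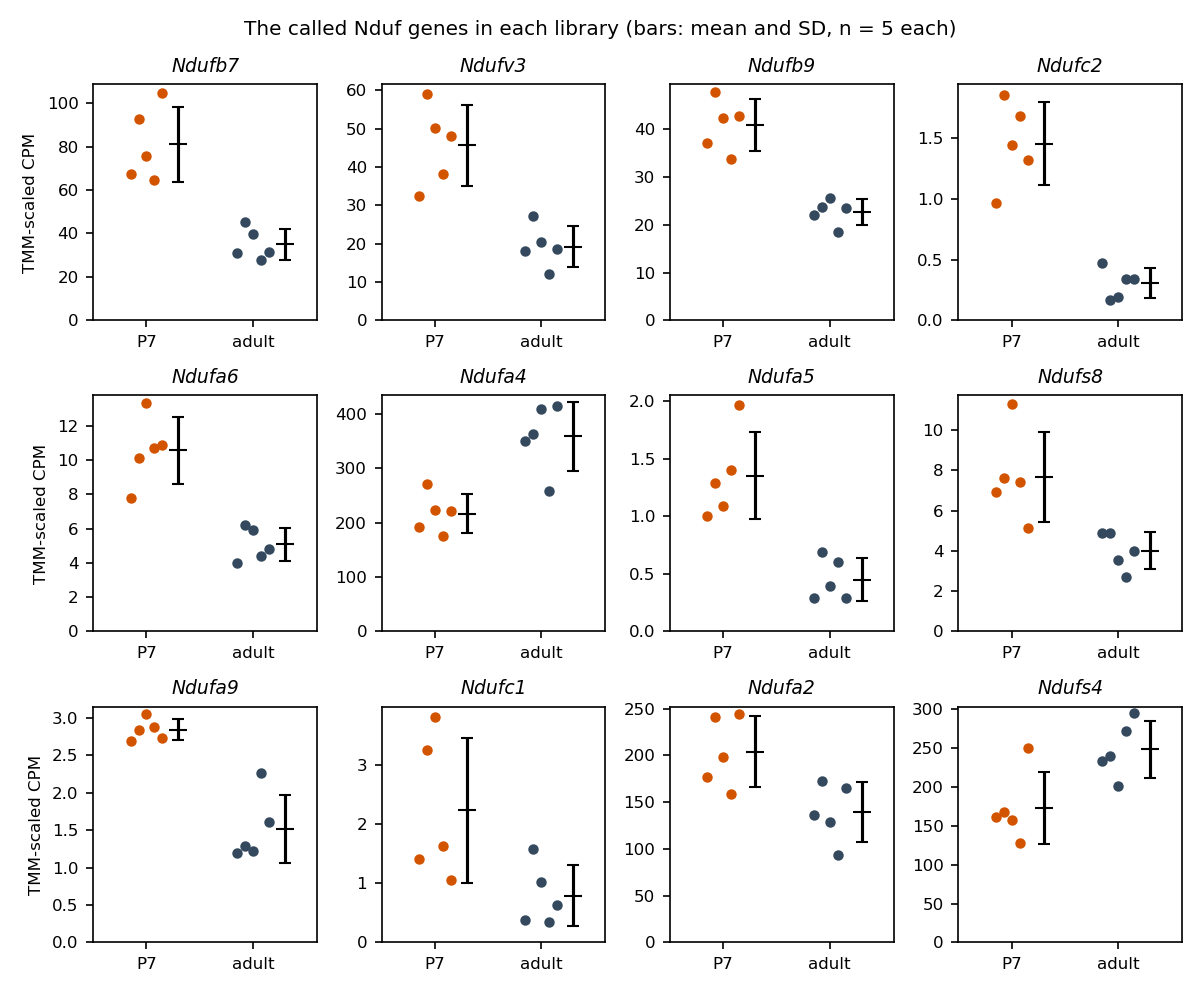
TMM-scaled CPM of the 12 called Nduf genes in each library, P7 left and adult right, each panel from 0. Points are libraries, and black bars give mean and SD (n = 5 each). Ndufb7, Ndufv3, Ndufb9, Ndufc2, Ndufa6, Ndufa5, Ndufs8 and Ndufa9 show no overlap between ages; Ndufa4 and Ndufs4 are lower at P7.

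The assembly factors had few counts and showed no call. Only 3 of 8 passed the filter, and 0 of them were called by edgeR, DESeq2 or limma-voom, with 0 at an unadjusted p under 0.05. Over all tested genes edgeR called 27.7% in either direction, so 0 of 3 does not set them apart. Ndufaf3, which acts early on the ubiquinone module, had 2.82, 3.25, 3.10, 4.20 and 4.29 CPM at P7, against 5.06, 2.79, 4.34, 6.47 and 3.27 CPM in adults. The adult values enclosed the P7 values, and the log2 fold change was -0.31 ± 0.27 (SE; edgeR adjusted p = 0.424). Ndufaf5, which hydroxylates an arginine of Ndufs7, had 5.23, 3.93, 1.21, 5.84 and 7.21 CPM at P7, against 5.06, 6.23, 1.61, 3.17 and 4.07 CPM in adults. The lowest value at each age came from the library lettered C, and the log2 fold change was 0.22 ± 0.42 (SE; edgeR adjusted p = 0.736). Ndufaf8, the partner of Ndufaf5, had 1.05, 1.14, 1.77, 1.52 and 1.05 CPM at P7, against 1.15, 0.774, 0.975, 0.2999 and 0.574 CPM in adults. Adult A lay among the P7 libraries, and the log2 fold change was 0.79 ± 0.41 (SE; edgeR adjusted p = 0.169).

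The other 5 assembly factors lay below the filter. Ndufaf1, which works with Ecsit and Acad9 on the membrane arm, held 1 to 15 counts in each P7 library and 0 to 4 in adult libraries. Ndufaf2, a relative of Ndufa12, held 0 to 6 counts in each P7 library and 1 to 3 in adult libraries, and Ndufaf4, a partner of Ndufaf3, held 1 to 14 counts in each P7 library and 0 to 6 in adult libraries. Ndufaf6 held at most 2 counts in any library, and Ndufaf7, a methyltransferase, held 0 to 21 counts in each P7 library and 0 to 7 in adult libraries. The subunits below the filter were Ndufs3, a core subunit, with 6 to 35 counts in each P7 library and 1 to 13 in adult libraries, and Ndufb4, with 4 to 13 counts in each P7 library and 2 to 7 in adult libraries. The pseudogene Ndufa12-ps held 5 to 14 counts in each P7 library and 1 to 3 in adult libraries, and the other 6 copies held at most 3 counts in any library. Reads of such copies and their parent genes may have been split. With no filter none of these 15 genes was called by edgeR (smallest adjusted p = 0.160, for Ndufa12-ps), and Ndufab1-ps and Ndufb11b held no count at all.

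Neither the subunits nor the assembly factors separated the ages when summed over genes. The 37 subunits summed to 1368 ± 234 CPM in P7 and 1160 ± 146 CPM in adult libraries (SD, 5 per age), and the 8 assembly factors to 10.7 ± 2.38 CPM in P7 and 9.56 ± 1.70 CPM in adults. Both pairs of sums overlapped between ages, at 1086 to 1602 CPM in P7 and 947 to 1332 CPM in adult libraries for the subunits and at 7.84 to 13.5 CPM in P7 and 7.17 to 11.7 CPM in adult libraries for the assembly factors. The ratio of the subunit sum to the assembly factor sum was 134 ± 42.3 at P7 and 124 ± 25.6 in adults. The median log2 fold change was 0.45 over the 35 tested subunits and 0.22 over the 3 tested assembly factors, and the difference between the 2 sets was not tested. The 0.22 leaves out the assembly factors below the filter. With no filter those had log2 fold changes of 1.77 (Ndufaf1), 0.84 (Ndufaf2), 1.79 (Ndufaf4), 1.35 (Ndufaf6) and 1.46 (Ndufaf7). Their SE ran from 0.94 to 1.43 and none was called, and the subunit median in that fit was 0.443. A smaller shift of the assembly factors can therefore not be read from the 0.22.

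The subunit sum was carried by few transcripts. Ndufa1, Ndufs4, Ndufa2 and Ndufa3 together held 63.0% ± 1.89 of it at P7 and 68.8% ± 1.45 in adult libraries (SD, 5 per age). Without these 4 the sum was 503 ± 70.7 CPM in P7 and 361 ± 38.8 CPM in adults, with P7 libraries from 422 to 583 CPM and adult libraries from 297 to 403 CPM, which do not overlap. On a scale per length, Ndufa1 stood highest at 738 CPM per kb of transcript at P7 and 672 in adults, ahead of Ndufa2 at 356 at P7 and 243 in adults and of Ndufa3 at 348 at P7 and 254 in adults, while Ndufs4 had 102 at P7 and 146 in adults. Ndufa4 had 355 CPM per kb at P7 and 588 in adults, the second highest in adults. The median tested subunit had 10.3 CPM per kb at P7 and 8.60 in adults. Ndufb2 and Ndufab1 came lowest, at under 1 CPM per kb, but their principal transcripts in the annotation, at 4371 and 3479 nt, are long for these small proteins, so their place in the order is uncertain.

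**Figure D3:**
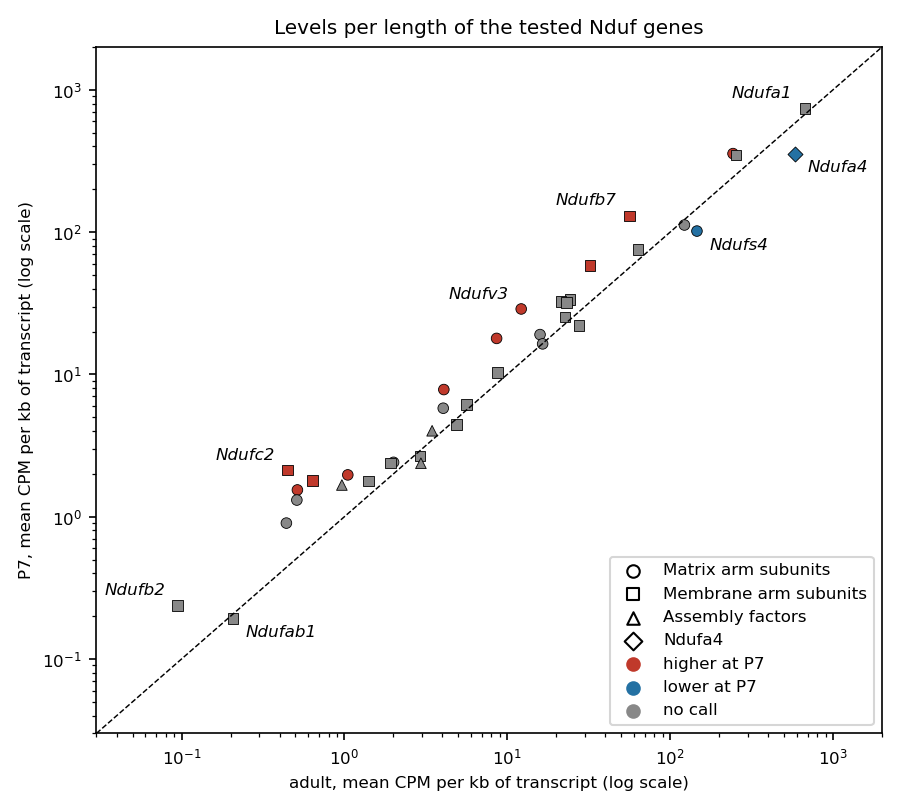
Mean CPM per kb of transcript of 38 of the 39 tested Nduf genes, adults on the horizontal and P7 on the vertical log axis, with shape for role and colour for the call. The dashed line marks equal levels. Most subunits lie on or above the line, the assembly factors lie low and close to it, and Ndufs4 and Ndufa4 lie below it.

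Across the tested subunits, 28 of 35 had a log2 fold change above 0 (80%; 52.7% of all tested genes), of which 10 were called and 18 were not. Of the 35, 9 had each P7 library above each adult library and 0 the reverse, where 10.1% and 9.76% of all tested genes did so. Among the 9, Ndufc2, Ndufa5 and Ndufb2 passed the filter through their P7 libraries, with 1, 2 and 3 adult libraries at the cut-off. The others (Ndufb7, Ndufv3, Ndufb9, Ndufa6, Ndufs8 and Ndufa9) reached the cut-off in all 10 libraries. The 28 subunits at or above the cut-off in all 10 libraries included 7 called higher and 1 called lower, beside 13.9% and 16.9% of the 5842 genes that met the same condition. The other 7 included 3 called higher (Ndufc2, Ndufa5 and Ndufc1) and 0 called lower, beside 13.5% and 6.54% of the 2356 other genes. Of these 7, 6 reached the cut-off in all P7 libraries but not in all adult ones. The median over the subunits was 0.45 in all libraries and between 0.285 and 0.513 with 1 library left out. It was 0.285 without adult G, which was the lowest adult library for 19 of the 35 subunits. Among P7 libraries, P7 A and P7 E were lowest for 13 subunits each, while P7 B was highest for 14 and P7 C for 11.

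**Figure D4:**
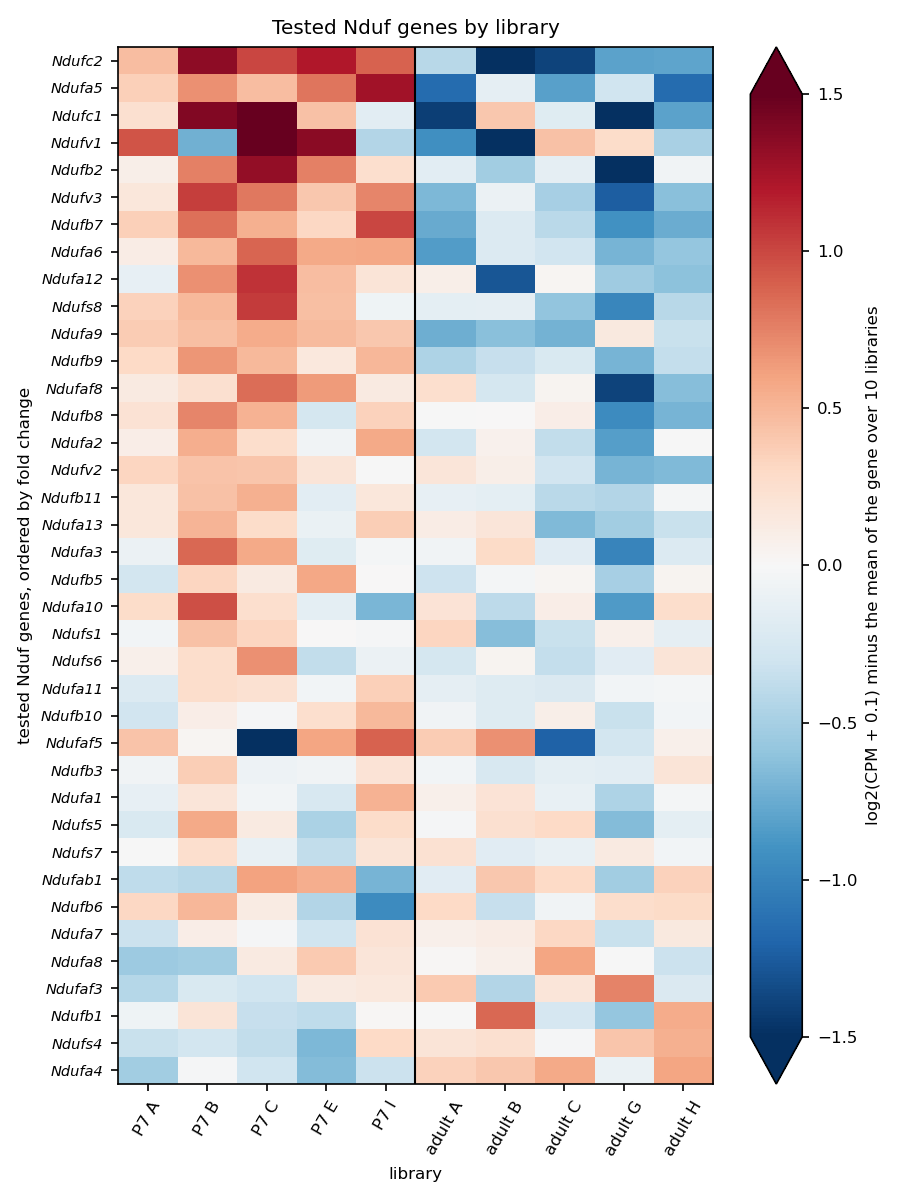
Deviation of 38 of the 39 tested Nduf genes in each library from the gene's own mean, as log2(CPM + 0.1), with P7 libraries left of the black line and genes ordered by fold change. Red is above and blue below the gene's mean. Genes at the top are red in P7 and blue in adult libraries, the adult G column is blue for many subunits, and Ndufs4 and Ndufa4 at the foot have the reverse pattern.

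Transcript GC content and length are given here beside these calls. The tested subunits had a median GC content of 52.1%, near the 52.8% of all genes called higher and above the 49.9% of all tested genes, and all genes called lower had 46.3%. Ndufs4 and Ndufa4, the genes that fell, had 43.05% and 44.1%. Subunits called higher had a median of 52.7% and subunits with no call 52.3%. Of the 2270 tested genes within 2.5 points of the subunits' median GC content, 16.2% were called higher and 10.3% lower. The subunits are also short, with a median transcript of 861 nt beside 2787 nt over all tested genes, and of 1340 genes in their middle range of lengths 18.4% were called higher and 14.6% lower. With the GC trend removed 9 subunits were called higher and 0 lower, 8 of them also called without that removal. With the length trend removed 10 were called higher and 1 lower.

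The platelet markers were abundant at both ages, with a summed level of 61497 to 87178 CPM at P7 and 58565 to 90018 CPM in adults over 13 genes. Markers of red cell precursors moved with age. Of 25 erythroid markers 17 were tested, 6 were higher and 1 (Aqp1) was lower. These calls are 35.3% and 5.88%, beside 13.8% and 13.9% of all tested genes. The sum over the 25 markers ran from 1174 to 2671 CPM at P7 and from 851 to 2057 CPM in adults. Of the defining markers, Slc4a1, Klf1 and Ermap were at 0 in each adult library and at or under 0.878 CPM at P7. Neutrophil markers summed to 42.0 to 72.0 CPM at P7 and 13.5 to 36.8 CPM in adults, with Cxcr2 and Ly6g at 0 in each library. Of the 16 neutrophil markers only 3 were tested, and 2 were higher (Prtn3 and Trem1). Monocyte markers summed to 2398 to 3754 CPM at P7 and 2972 to 6164 CPM in adults, B cell markers to 19.5 to 42.1 CPM at P7 and 12.6 to 19.6 CPM in adults, and T and NK cell markers to 6.31 to 9.17 CPM at P7 and 8.996 to 18.7 CPM in adults. Among 4 tested monocyte markers F10 was called higher and Lyz2 lower. Ighm was called higher among 4 tested B cell markers, and Nkg7 lower among 3 tested T and NK cell markers. Single genes carried much of the first 3 of these other-cell sums, Hba-a1 the erythroid one (mean CPM 1493 in P7 libraries, 905 in adult libraries), Trem1 the neutrophil one (53.7 in P7 libraries, 18.8 in adult libraries) and Lyz2 the monocyte one (2765 in P7 libraries, 4363 in adult libraries). A covariate made from the log2 levels of the 17 tested erythroid markers, each with equal weight, had 75.7% of its variance explained by age. With it in the fit 0 subunits were called in either direction (32 of all genes higher and 73 lower). With erythroid and mitochondrially encoded genes removed before scaling, 10 subunits were called higher and 1 lower, the same counts as without that removal.

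The mitochondrially encoded partners of these subunits, which form the proton-pumping core, had 5 of 7 genes tested, 1 higher and 0 lower. These calls are 20% and 0%, beside 13.8% and 13.9% of all tested genes. All 5 log2 fold changes lay above 0. mt-Nd1, which lies next to the ubiquinone site, had 136, 196, 118, 149.9 and 226 CPM at P7, against 89.2, 86.9, 63.1, 115 and 113 CPM in adults. The groups were separate, with P7 C just above adult G, and the log2 fold change was 0.82 ± 0.21 (SE; edgeR adjusted p = 0.00883), not called with the erythroid covariate (1.23, adjusted p = 0.145). The other log2 fold changes were 0.57 for mt-Nd5, 0.41 for mt-Nd6, 0.27 for mt-Nd2 and 0.22 for mt-Nd4, with adjusted p of 0.104, 0.373, 0.379 and 0.494. With the GC trend removed, these 4 were called higher too, at 1.03, 0.99, 0.79 and 0.74. mt-Nd3 and mt-Nd4l held 0 counts in each library, so no level can be given for them. The mt-Nd sum was 746 ± 234 CPM in P7 and 549 ± 138 CPM in adult libraries (SD, 5 per age), and P7 libraries at 518 to 1090.0 CPM overlapped adult libraries at 352 to 699.9 CPM.

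Among 14 complex I assembly factors without an Nduf name, 6 were tested and 0 were called by edgeR (1 at an unadjusted p under 0.05). Over all tested genes 27.7% were called in either direction. The most abundant were Dmac1, a factor of the distal membrane arm, at 21.5 ± 2.65 CPM in P7 and 23.1 ± 7.54 CPM in adults, and Lyrm2 at 3.02 ± 0.758 CPM in P7 and 3.38 ± 1.53 CPM in adult libraries (SD, 5 per age). Iron-sulfur cluster assembly, which supplies the matrix arm, had 9 of 14 genes tested, 2 higher and 0 lower. These are 22.2% and 0%, beside 13.8% and 13.9% of all tested genes. Nfs1, the cysteine desulfurase that provides the sulfur, averaged 3.14 ± 0.871 CPM in P7 libraries and 1.23 ± 0.553 CPM in adult libraries (SD, 5 per age), without overlap (log2 fold change 1.36 ± 0.38 SE, edgeR adjusted p = 0.0152), a call lost with the erythroid covariate (0.53, adjusted p = 0.767) and in the 6 libraries lettered A to C (1.49, adjusted p = 0.0640). Hspa9, the mitochondrial Hsp70, averaged 2.45 ± 1.01 CPM in P7 libraries and 1.00 ± 0.491 CPM in adult ones (1.28 ± 0.42 SE, edgeR adjusted p = 0.0329), a call lost without P7 A, C or E or adult A or H (adjusted p up to 0.103), in the same 6 libraries (0.158) and with the covariate (0.345).

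Genes that feed NADH to complex I, or that belong to the shuttles for electrons of cytosolic NADH, were all tested, 17 of 17. Of these, 5 were higher and 1 lower (29.4% and 5.88%), beside 13.8% and 13.9% of all tested genes. Gpd1, the cytosolic enzyme of the glycerol phosphate shuttle, had 14.1, 10.8, 10.8, 9.08 and 8.58 CPM at P7, against 1.77, 2.28, 1.46, 1.37 and 0.918 CPM in adults. The groups lay far apart, at a log2 fold change of 2.77 ± 0.27 (SE; edgeR adjusted p = 1.09e-05). Slc25a12, the calcium-sensitive aspartate-glutamate carrier of the malate-aspartate shuttle, had 11.4, 18.8, 14.6, 9.40 and 9.72 CPM at P7, against 61.6, 73.7, 53.7, 31.6 and 27.0 CPM in adults. It was the 1 member that fell, without overlap, at -1.96 ± 0.29 (SE; edgeR adjusted p = 0.000258). Its relative Slc25a13 was scarce at both ages, at 1.29 ± 0.646 CPM in P7 and 0.489 ± 0.214 CPM in adult libraries (SD, 5 per age; edgeR adjusted p = 0.0442), and is named here after its values were seen. Ogdh and Idh3g, both of the citric acid cycle, rose by 1.01 ± 0.22 and 0.80 ± 0.19 on the log2 scale (SE; edgeR adjusted p = 0.00379 and 0.00658). Dlat, a pyruvate dehydrogenase subunit, was called higher at a level near the filter (0.960 ± 0.370 CPM in P7 and 0.257 ± 0.254 CPM in adults; edgeR adjusted p = 0.0307), a call lost in 8 of 10 fits with 1 library left out (adjusted p up to 0.0774) and with no filter on low counts (0.0509). With the erythroid covariate Slc25a12 stayed called (-2.66, adjusted p = 0.0433), while Gpd1 (2.37, adjusted p = 0.0503), Ogdh (0.44, 0.680), Idh3g (0.49, 0.579) and Dlat (0.80, 0.775) did not, and Idh3g was also not called in the 6 libraries lettered A to C (adjusted p = 0.0560).

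Regulators known to act on respiratory genes had 7 of 11 members tested and 0 called by edgeR, beside 27.7% of all tested genes. Of the 7, 2 had a log2 fold change above 0 and 5 below 0, with a median of -0.47, and 4 had an unadjusted p under 0.05. Tfb2m, a factor of mitochondrial transcription, averaged 8.42 ± 1.70 CPM in P7 libraries and 8.51 ± 0.863 CPM in adult ones, and Yy1 averaged 5.71 ± 1.32 CPM in P7 libraries and 7.91 ± 1.20 CPM in adult libraries (SD, 5 per age; edgeR adjusted p = 0.965 and 0.124). Nrf1, whose motif stood in 9 Nduf promoters, was scarce, at 1.36 ± 0.513 CPM in P7 and 0.633 ± 0.257 CPM in adults (log2 fold change 1.09, edgeR adjusted p = 0.0682). Gabpa, of the GABP factors, had 0.475 ± 0.182 CPM in P7 and 1.18 ± 0.807 CPM in adults (-1.31, edgeR adjusted p = 0.0845). Esrra had 0.323 ± 0.193 CPM in P7 and 0.890 ± 0.540 CPM in adults (-1.46, edgeR adjusted p = 0.125). Nrf1, Gabpa and Esrra are named here after their values were seen.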

How the data were processed

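Each deposited file holds the raw count of 1 library for every gene symbol; the values are whole numbers, not normalized by the authors as far as the files show. The submitters' processing notes list fastp 0.23.1, Salmon 1.5.2, STAR 2.7.9a, featureCounts and Subread 2.0.1, without saying what each did. Genome build, annotation and strand setting were not given in the sources used, and 20 members overlap another gene's exons in GENCODE M21, so their counts are uncertain. Totals ran from 19431863 to 25029931 counts at P7 and from 19541997 to 23291269 in adults, over 12454 to 14965 detected genes at P7 and 12270 to 13138 in adults. A count of 0 allowed up to 0.120 to 0.154 CPM (3 counts of the total, counting error only).

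Genes passing filterByExpr (minimum count 10, minimum total 15) were tested after TMM scaling by the robust quasi-likelihood method of edgeR 4.0.16 (R 4.3.3, limma 3.58.1), with age as the only term and Benjamini-Hochberg adjustment over 8198 genes; the code was tested on simulated data. Alternatives included DESeq2 1.42.0, limma-voom, other scalings and filters, an erythroid covariate, and each library left out. Transcript length and GC content came from the principal isoform in GENCODE M21. The members and lists were chosen with earlier results of these data known. Each Nduf row was reported except 1 that is counted in the totals but not reported here. From every other list, at most 4 called genes per direction were named by smallest p, or, with no call, the pair of highest level; every tested mt-Nd gene was named.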

Additional observations from a re-analysis of the deposited data

How the results depend on the processing

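Subunits called higher numbered 7 to 10 with 1 library left out, 0 with the erythroid covariate and 5 with the replicate block on the shared letters A to C (7 in the same 6 libraries without the block); subunits called lower numbered 0 or 1 with 1 library left out and 0 with upper quartile factors, the erythroid covariate, the block or the GC trend removed. Over all genes, 879 to 1160 were called higher and 964 to 1234 lower with 1 library left out, 569 and 646 with genes of at least 10 CPM (fewer genes tested), 32 and 73 with the erythroid covariate, and 660 and 756 with the block. The other settings kept each of these counts within 1.5 times, and assembly factor calls numbered 0 under every setting run. Equal counts need not mean the same genes. Of the 10 higher and 1 lower subunit calls in all libraries, 4 recurred with the block and 8 in the same 6 libraries without it. With the GC trend removed 8 recurred, and with 1 library left out 7 to 10. The letters were not taken to pair the libraries: correlations of same-lettered deviations were -0.0378 (A), 0.0649 (B) and 0.0067 (C). GC and length corrections were chosen after seeing the data.

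Of the Nduf values under alternatives, 773 kept direction and side of the threshold, 49 lost their call, 9 gained one and 43 changed sign. Sign changes, other named genes included, with the erythroid covariate gave log2 fold changes of -0.16 for Ndufs8, -0.094 for Ndufc1, -0.11 for Ndufb11, -0.11 for Ndufb2, -0.018 for Ndufa13, -0.058 for Ndufv2, -0.47 for Ndufa3, -0.54 for Ndufs6, 0.54 for Ndufaf3, -0.58 for Ndufa10, 0.28 for Ndufa8, -0.12 for Ndufs5, 0.094 for Ndufs7 and 1.33 for Lyrm2. Removing the GC trend gave -0.093 for Ndufa11, -0.014 for Ndufs6, -0.028 for Ndufb10, 0.039 for Ndufab1 and 0.24 for Tfb2m. The block, and the same 6 libraries without it, gave -0.050 and -0.046 for Ndufb10, -0.080 and -0.082 for Ndufa1, -0.37 and -0.35 for Ndufaf5, -0.044 and -0.019 for Ndufs5, 0.32 and 0.31 for Ndufb6 and 0.030 and 0.027 for Ndufs7. Library size only gave 0.049 for Ndufs7 and 0.035 for Tfb2m, upper quartile factors 0.045 for Ndufs7 and 0.045 for Tfb2m, and genes of at least 10 CPM 0.042 for Ndufs7. With 1 library left out, ranges that crossed 0 were -0.0051 to 0.18 for Ndufa1, -0.00042 to 0.46 for Ndufaf5, -0.28 to 0.019 for Ndufa8, -0.040 to 0.21 for Ndufs5, -0.28 to 0.043 for Ndufb6, -0.30 to 0.060 for Ndufab1, -0.076 to 0.051 for Ndufs7, -0.25 to 0.019 for Dmac1, -0.35 to 0.020 for Lyrm2 and -0.11 to 0.029 for Tfb2m. The causes were not tested. Assembly factors below the filter on low counts held at most 21 counts in any library, and calls at other depths were not computed.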
